A study of Ovis aries with 8 samples.

Results

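ABC transporters are membrane proteins that use ATP to move lipids, bile salts, conjugates, drugs and cofactors across membranes. In the liver they pump the components of bile into the canaliculus, the narrow channel between hepatocytes, return some of the same compounds to blood, load cholesterol onto lipoproteins, and serve mitochondria, peroxisomes and lysosomes. Members of the ABCE and ABCF subfamilies share the ATP-binding domain but have no membrane part, and act in the cytosol, some of them on ribosomes. The 40 members described here are all rows of the deposited expression table, out of 27729 genes, whose symbol is ABC followed by a subfamily letter from A to G and a number.

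The livers came from 8 preweaning lambs of the Assaf breed, each with its own RNA-seq library. In the RES group, 4 lambs received a restricted 120 mL of milk replacer per kg of body weight, and in the ADL group 4 lambs were fed ad libitum at 192 mL per kg. At slaughter the RES lambs weighed 7.5 to 8.7 kg and the ADL lambs 10.4 to 12.45 kg, both groups at 33 to 36 days of age. The comparison asks how milk replacer restriction alters the expression of these genes in the liver.

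Levels are in TPM, read shares that correct for gene length and library total, and ± gives the SD over 4 lambs of a group unless stated. Log2 fold changes are RES over ADL on log2(TPM + 0.5), tested with limma across all genes with a mean of at least 1 TPM, and p-values are adjusted over those genes by Benjamini-Hochberg with a threshold of 0.05. Each lamb had 15134039 to 17879918 reads in genes. Hepatocyte markers summed to 44986 to 139240 TPM in RES and 48626 to 101892 TPM in ADL. Their median log2 fold change was 0.46. Of the 7 hepatocyte markers, 1 was higher and 1 lower in RES at a limma unadjusted p under 0.05, against 5.53% and 4.17% of all genes. Their part in the ABC results was not tested. The 6 erythroid markers matched summed to at most 1.45 TPM in any lamb. ADL 3 stood apart from its group, its mean correlation across genes being 0.956 with RES lambs and 0.929 with its own group, so results are given with and without it. Which lamb to leave out was chosen with its values known. Without ADL 3 the median log2 fold change of the hepatocyte markers was 0.22, and 1 of the 7 fell (limma adjusted p under 0.05), against 7.59% of all genes.

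The ABC members together took 840 to 912 TPM in the RES lambs and 793 to 864 TPM in the ADL lambs. Their 4 most abundant members, ABCA10, ABCB11, ABCD3 and ABCA6, held 48.8% of this sum on average. Of the 40 members, 28 had a mean of at least 1 TPM and were tested, and 12 were low. By role, the ABCA members with ABCG1 and ABCG4, grouped as lipid transporters, held 29.7% of the summed level. Most of this share came from ABCA10, whose substrate is not settled, and ABCA6, with means of 158 and 66.5 TPM. Canalicular exporters, with ABCG2, ABCG5 and ABCG8 among them, held 22.6%, the peroxisomal and cobalamin group 14.3%, and other ABCC exporters 12.1%. The ABCE and ABCF proteins held 11.9%, and mitochondrial and endolysosomal ABCB proteins 8.82%.

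**Figure D1:**
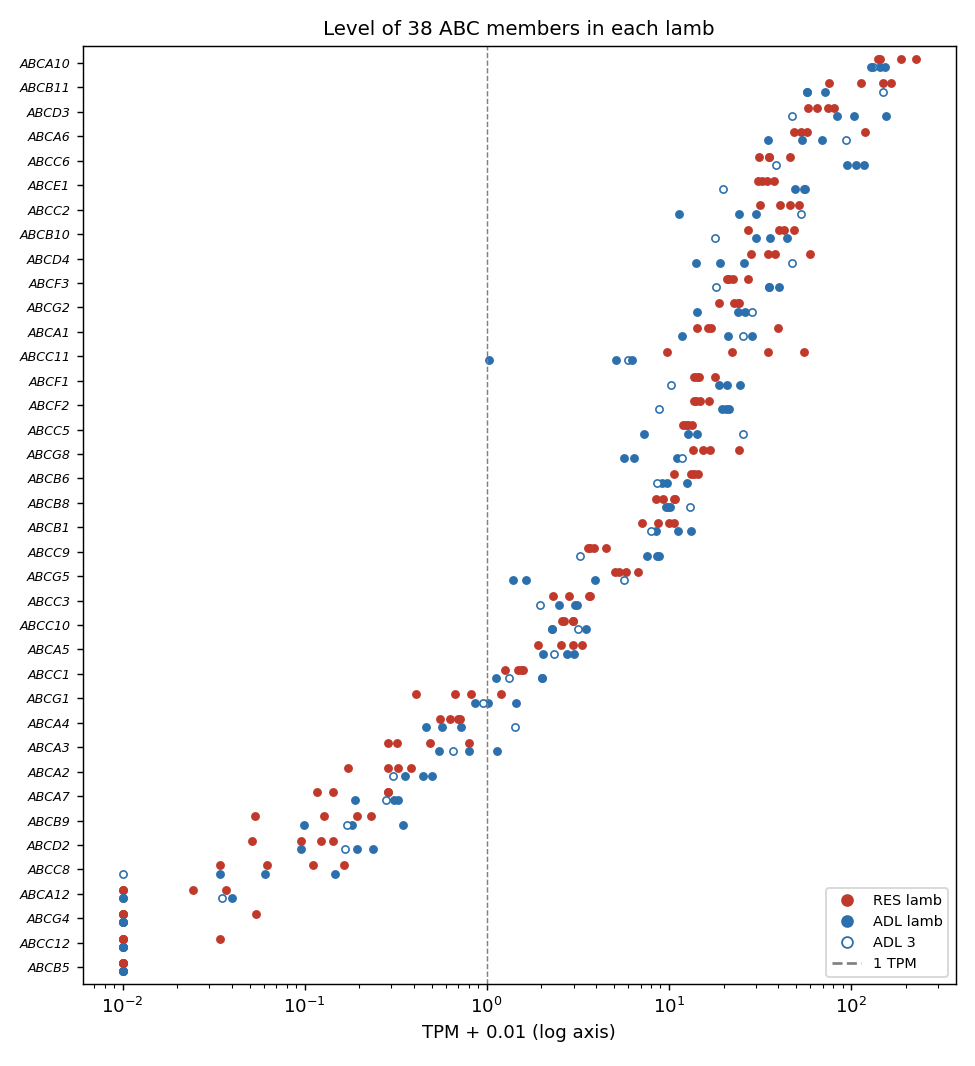
Level of 38 of the 40 ABC members in each lamb (TPM + 0.01, log axis), ordered by mean level from top to bottom; red points are RES lambs, blue points ADL lambs, the open circle is ADL 3 and the dashed line marks 1 TPM. The members span ABCA10 at 128 to 227 TPM to ABCB5 at 0 in every lamb, and ABCC11 shows the widest gap between the groups.

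In all 8 lambs no member passed the adjusted threshold (limma, 0 of 28 tested), where 0.00724% of all 13812 genes tested did so. At an unadjusted p under 0.05 there were 5 members, ABCC11, ABCG8 and ABCG5 at higher levels in RES and ABCC6 and ABCC9 at lower levels, against 9.70% of all genes tested. Voom, a limma method for counts, run on the reads recovered from the TPM values, called 0 members and 1 of 13812 genes. The authors' deposited table, made with DESeq2, lists an adjusted p under 0.05 for ABCC11 and ABCC6, where 2.30% of the 16794 genes with an adjusted p in the authors' deposited table fall below 0.05. The median log2 fold change was 0.04 over the 28 members and -0.04 over all genes tested. In 2 members, ABCC11 and ABCG8, every RES value lay above every ADL value, and in no member did every RES value lie below. Of all genes tested, 4.48% had groups that do not overlap, 2.80% with RES above and 1.68% with RES below.

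Without ADL 3, 8 of the 28 members passed (limma adjusted p under 0.05), against 10.0% of 13815 genes. ABCC11, ABCG8 and ABCG5 rose in RES, and ABCC6, ABCC9, ABCE1, ABCF3 and ABCF2 fell, where 2.42% of all genes rose and 7.59% fell. The median log2 fold change was 0.09 over the members and -0.13 over all genes. Rescaling by median of ratios brought the median of all genes to 0.01. It called 8 members as well, 7 of them shared, with 4 higher and 4 lower in place of 3 and 5: ABCB11 was added among the higher members and ABCF2 was lost from the lower ones. After rescaling 8.33% of all genes passed, 4.45% higher and 3.88% lower. At an unadjusted p under 0.05 there were 13 members without ADL 3, against 29.6% of all genes.

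**Figure D2:**
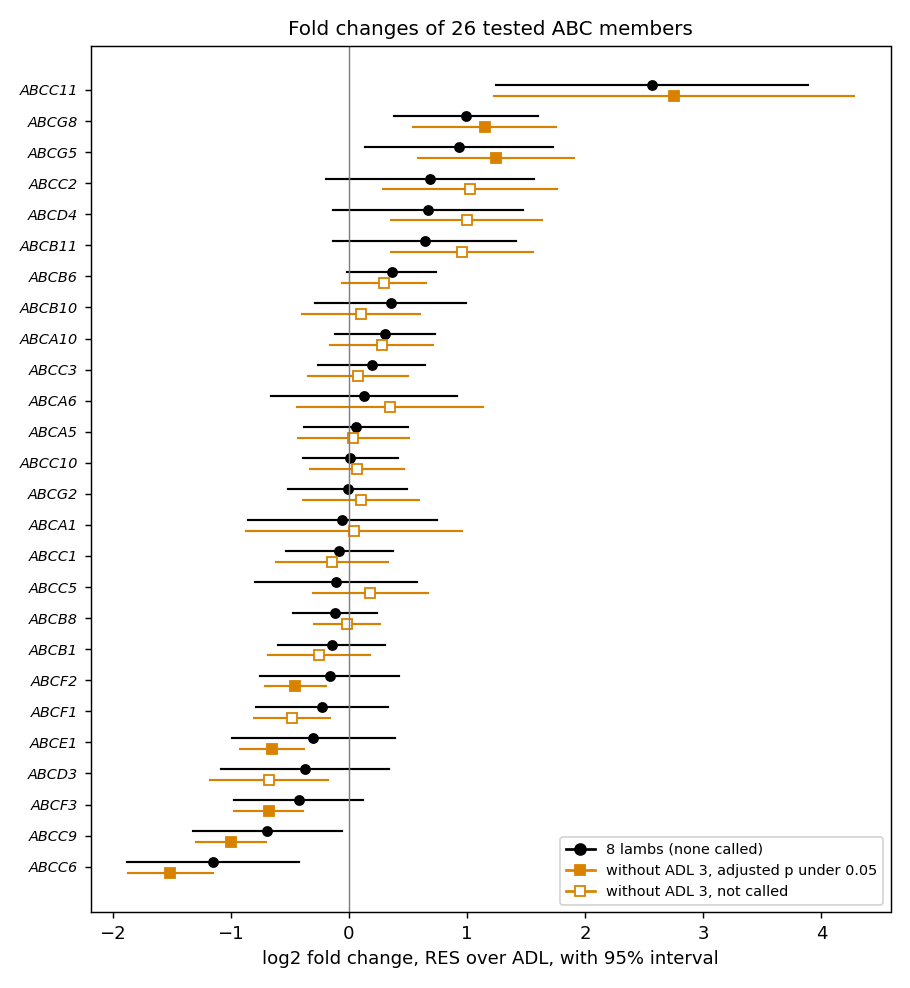
Log2 fold change of 26 of the 28 tested members, RES over ADL, with the 95% interval of limma, in 8 lambs (black circles) and without ADL 3 (orange squares, filled where the adjusted p was under 0.05). ABCC11 lies farthest to the right at 2.57 in 8 lambs, ABCC6 farthest to the left at -1.15, and the intervals of ABCC6, ABCC9, ABCE1, ABCF2 and ABCF3 are narrower without ADL 3.

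The canalicular exporters were considered first. ABCG5 and ABCG8 each encode a subunit of the sterol exporter that sends cholesterol and plant sterols into bile. The sources used here do not name the genome build, and all coordinates are those of the deposited table. There the genes lie head to head on chromosome 3. ABCG8 occupies 80180144 to 80200774 on the minus strand and ABCG5 80200805 to 80232162 on the plus strand, with 30 bases between them and 13 exons each.

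ABCG8 had 15.3, 24.3, 13.5 and 16.8 TPM in RES 1 to RES 4, against 11.1, 5.66, 11.8 and 6.45 TPM in ADL 1 to ADL 4. The lowest RES lamb stood above the highest ADL lamb, which was ADL 3. The means were 17.5 ± 4.73 TPM in RES and 8.75 ± 3.14 TPM in ADL, a log2 fold change of 0.99 (SE 0.27, limma adjusted p = 0.296). Without ADL 3 ABCG8 rose by 1.15 (SE 0.26, limma adjusted p = 0.0353). The authors' deposited table gives ABCG8 an adjusted p of 0.0833.

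ABCG5 had 5.04, 6.80, 5.83 and 5.34 TPM in the RES lambs, against 3.94, 1.39, 5.70 and 1.64 TPM in ADL 1 to ADL 4. The RES lambs lay close together, and ADL 3 alone among the ADL lambs lay within their range. ABCG5 differed by 0.94 on the log2 scale (SE 0.36, limma adjusted p = 0.453) and rose by 1.25 without ADL 3 (SE 0.29, limma adjusted p = 0.0355). The ranges of their ratio overlapped: the level of ABCG8 was 2.32 to 3.57 times that of ABCG5 in RES and 2.07 to 4.06 times in ADL.

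ABCB11, the bile salt export pump, lies on chromosome 2 at 139243991 to 139349745 and was the most abundant canalicular member. It had 166, 114, 150 and 75.5 TPM in RES 1 to RES 4, against 57.8, 72.1, 150 and 57.2 TPM in ADL 1 to ADL 4. The RES lambs lay above ADL 1, ADL 2 and ADL 4, RES 4 only just, and ADL 3 lay among the highest RES lambs. ABCB11 differed by 0.64 on the log2 scale in 8 lambs (SE 0.35, limma adjusted p = 0.609) and 0.96 without ADL 3 (SE 0.26, limma adjusted p = 0.0568). It passed without ADL 3 after rescaling (1.11, limma adjusted p = 0.0394) and with voom (0.99, adjusted p = 0.046), which called 9 members, the 8 named above and ABCB11. With voom 9.87% of all genes passed and 2.53% rose.

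ABCC2, which exports conjugated bilirubin into bile, had 46.3, 40.9, 31.6 and 51.7 TPM in RES, against 24.4, 11.3, 52.9 and 30.3 TPM in ADL. ADL 3 was the highest of all 8 lambs, and the other ADL lambs were below every RES lamb. ABCC2 differed by 0.69 (log2; SE 0.39, limma adjusted p = 0.629), and by 1.03 without ADL 3 (SE 0.32, limma adjusted p = 0.0789). Neither value passed.

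The drug exporters of the canaliculus had means within the spread of the lambs. ABCG2, which also carries urate and sulphated conjugates, had 22.5 ± 2.54 TPM in RES and 23.3 ± 6.39 TPM in ADL, a log2 fold change of -0.01 with a 95% interval of -0.51 to 0.49. ABCB1, or P-glycoprotein, had 9.12 ± 1.55 TPM in RES and 10.2 ± 2.44 TPM in ADL, with a log2 fold change of -0.14 and an interval of -0.60 to 0.31. The row named ABCB1 has no position in the deposited table and a listed length of 1311 nucleotides, and 6 other rows are described as multidrug resistance protein 1 or as similar to it. Of these 6, 4 reached a mean of 1 TPM. The highest had a mean of 9.70 TPM, beside 9.67 TPM for the ABCB1 row, and a log2 fold change of -0.34 (limma unadjusted p = 0.34). Their sharing of reads was not tested. ABCB4, which moves phosphatidylcholine into bile, was not analysed here.

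Together the 6 canalicular members summed to 180 to 260 TPM in RES and 123 to 257 TPM in ADL, where ADL 3 held the 257 and the other ADL lambs 123 to 135. In bulk liver, fewer cells of a type and less RNA per cell cannot be told apart. Cholangiocyte markers, which mark bile duct cells, had unadjusted p under 0.05 at lower levels in RES in 4 of 8 genes (4.17% of all genes tested were lower at that p). The summed level of these markers was 13.7 to 94.5 TPM in RES and 35.7 to 125 TPM in ADL (125 in ADL 3, at most 63.6 in the others), none of them was at 0, and their part in the ABC results was not tested.

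**Figure D3:**
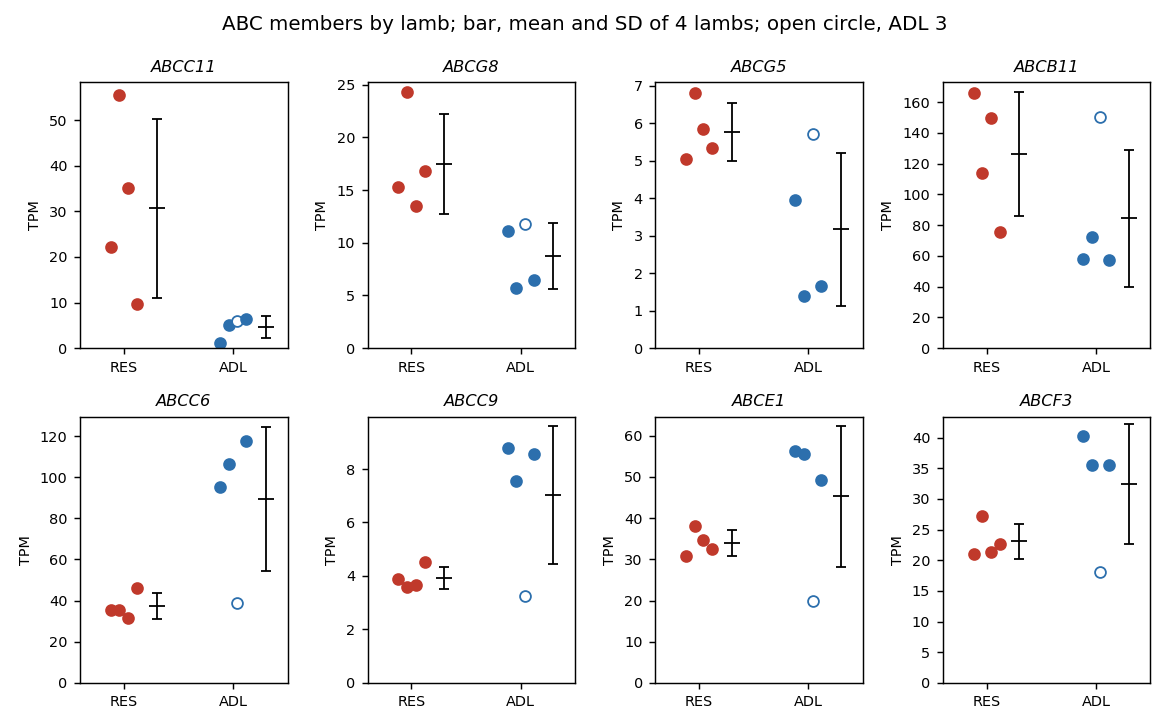
TPM of 8 ABC members in each lamb, RES on the left (red) and ADL on the right (blue), with ADL 3 as an open circle and the black bar giving the mean and SD of 4 lambs; each axis starts at 0. In ABCC11 and ABCG8 the groups do not overlap, in ABCG5, ABCB11 and ABCC6 ADL 3 lies within the RES range, and in ABCC9, ABCE1 and ABCF3 it lies below every RES lamb.

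The other ABCC exporters included the members with the largest difference in each direction. ABCC11 exports lipophilic anions and cyclic nucleotides and is best known in humans for its role in ear wax type. Its 30 exons span 16055436 to 16147219 of chromosome 14, on the minus strand. It had 22.1, 55.6, 35.2 and 9.71 TPM in RES 1 to RES 4, against 1.02, 5.11, 5.99 and 6.30 TPM in ADL 1 to ADL 4. All RES lambs were above all ADL lambs, ADL 3 lay with its group, and the nearest lambs of the groups were RES 4 and ADL 4. The lowest value, in ADL 1, rested on 38 reads, and those of the RES lambs on 443 to 2159 reads.

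Mean ABCC11 was 30.6 ± 19.6 TPM in RES and 4.61 ± 2.44 TPM in ADL, a log2 fold change of 2.57 (SE 0.59, unadjusted p = 0.00152, limma adjusted p = 0.274). Without ADL 3 it rose by 2.75 (SE 0.66, limma adjusted p = 0.0398). In the authors' deposited table the adjusted p of ABCC11 is 0.00194, with a maximum likelihood log2 fold change of 2.71 and a shrunken value of 1.53. Leaving out each lamb in turn kept the log2 fold change between 2.05 and 3.02. Its neighbour and close relative ABCC12 begins 10653 bases away on the same strand and was listed at 0 in 7 lambs, with 1 read in RES 4.

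ABCC6 mediates the release of ATP from hepatocytes, and its loss in humans leads to calcification of connective tissue. It lies on chromosome 24 at 14453809 to 14519661 on the minus strand, with 32 exons. It had 35.7, 35.6, 31.4 and 46.4 TPM in RES 1 to RES 4, against 95.1, 106, 38.8 and 118 TPM in ADL 1 to ADL 4. The RES lambs and ADL 3 formed a low range, well below ADL 1, ADL 2 and ADL 4.

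The means of ABCC6 were 37.3 ± 6.40 TPM in RES and 89.5 ± 35.1 TPM in ADL, a log2 fold change of -1.15 (SE 0.33, unadjusted p = 0.0056, limma adjusted p = 0.306). Without ADL 3 it fell by 1.51 on the log2 scale (SE 0.16, limma adjusted p = 0.00261), the smallest adjusted p among the members in that fit. In the authors' deposited table, from all 8 lambs, the adjusted p of ABCC6 is 0.00833 and the maximum likelihood log2 fold change is -1.16. ABCC1, an exporter of glutathione conjugates, is its neighbour, tail to tail with 4582 bases between them. ABCC1 had 1.46 ± 0.139 TPM in RES and 1.60 ± 0.458 TPM in ADL, with a log2 fold change of -0.08 and a 95% interval of -0.53 to 0.37.

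The remaining tested exporters of this group, ABCC3, ABCC5 and ABCC10, had log2 fold changes of 0.19, -0.11 and 0.01 and 95% intervals that lay between -0.80 and 0.65. ABCC3, which sends glucuronides and bile salts back to blood, was at 3.11 ± 0.657 TPM in RES and 2.65 ± 0.545 TPM in ADL. ABCC5, an exporter of cyclic nucleotides, had 12.0 to 13.3 TPM in RES and 7.34 to 25.7 TPM in ADL, and ADL 3 was the highest. ABCC4 was not analysed here under that symbol, and 26 rows outside the family rule are described as multidrug resistance-associated protein 4 or as similar to it. Of these, 8 reached a mean of 1 TPM, the highest 2.91 TPM, and none had an unadjusted p under 0.05 in 8 lambs or passed without ADL 3.

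ABCC9 is not an exporter but the sulphonylurea receptor that regulates ATP-sensitive potassium channels, known from heart, vessels and the cells around them. Its 44 exons span 192784325 to 192949942 of chromosome 3. It had 3.89, 3.57, 3.68 and 4.51 TPM in RES, against 8.78, 7.56, 3.25 and 8.57 TPM in ADL 1 to ADL 4. ADL 3 was the lowest of the 8 lambs, and the other ADL lambs all stood above RES. ABCC9 differed by -0.69 on the log2 scale (SE 0.28, limma adjusted p = 0.486) and fell by 1.00 without ADL 3 (SE 0.13, limma adjusted p = 0.00655).

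Beside ABCC9, stellate cell markers, which mark the pericytes of the liver, summed to 319 to 469 TPM in RES and 382 to 546 TPM in ADL, and none of 9 had an unadjusted p under 0.05. Without ADL 3, 1 of the 9 rose, against 2.42% of all genes, and their median log2 fold change was -0.073 (-0.0018 in 8 lambs). The 1 that rose was the contractile marker ACTA2, by 1.04 (limma adjusted p = 0.0261), against 0.62 in 8 lambs (limma adjusted p = 0.666). Sinusoidal endothelial markers summed to 270 to 363 TPM in RES and 262 to 472 TPM in ADL, where ADL 3 had the lowest sum and the other ADL lambs 386 to 472 TPM. Of the 8 endothelial markers 1 fell without ADL 3, against 7.59% of all genes, and their median log2 fold change was -0.19 (-0.08 in 8 lambs). The 1 that fell was LYVE1 (-0.99, limma adjusted p = 0.049 without ADL 3, and 0.0687 after rescaling). Its log2 fold change in 8 lambs was -0.71 (limma adjusted p = 0.524). The part of these cells in the ABCC9 result was not tested. ABCC8, the sulphonylurea receptor of pancreatic beta cells, was low, with 22 reads over the 8 lambs.

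The cytosolic ABC proteins had lower mean levels and negative log2 fold changes in RES in all 4 cases. Of all genes tested in 8 lambs, 7798 of 13812 also had a negative log2 fold change. None of the 4 had a limma unadjusted p under 0.05 in 8 lambs. ABCE1 splits ribosomes after termination so that they can be used again, and ABCF1 acts in the initiation of translation. ABCE1 had 30.7, 38.1, 34.8 and 32.6 TPM in RES, against 56.3, 55.5, 19.96 and 49.3 TPM in ADL 1 to ADL 4. ADL 3 was below every other lamb, and ADL 1, ADL 2 and ADL 4 were above every RES lamb. ABCE1 differed by -0.30 on the log2 scale in 8 lambs (SE 0.31, limma adjusted p = 0.791) and fell by 0.65 without ADL 3 (SE 0.12, limma adjusted p = 0.0192).

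The ABCF genes had a like arrangement of lambs. ABCF3 had 20.9, 27.2, 21.4 and 22.6 TPM in RES, against 40.2, 35.5, 18.1 and 35.6 TPM in ADL. It had a log2 fold change of -0.43 (limma adjusted p = 0.633) and fell by 0.68 without ADL 3 (SE 0.13, limma adjusted p = 0.0211). ABCF2 had 13.8, 16.7, 14.2 and 14.8 TPM in RES, against 19.7, 21.4, 8.88 and 20.5 TPM in ADL. In ABCF2 too ADL 3 was the lowest and the other ADL lambs the highest.

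ABCF2 had a log2 fold change of -0.16 (limma adjusted p = 0.872) and fell by 0.45 without ADL 3 (SE 0.11, limma adjusted p = 0.0416), a call that was lost after rescaling (-0.31, limma adjusted p = 0.166). ABCF1 had 13.8 to 17.8 TPM in RES and 10.2 to 24.6 TPM in ADL, with a log2 fold change of -0.23 in 8 lambs and -0.48 without ADL 3 (limma adjusted p = 0.0647). The summed level of the 4 genes was 79.3 to 99.8 TPM in RES and 57.1 to 141 TPM in ADL, with 57.1 TPM in ADL 3. The median of all genes without ADL 3 was also negative (-0.13). After rescaling without ADL 3, ABCE1 (-0.50, limma adjusted p = 0.0438) and ABCF3 (-0.53, limma adjusted p = 0.0456) passed. ABCF1 (-0.34, limma adjusted p = 0.123) did not pass, nor did ABCF2. The part of the shift of all genes in these values was not tested.

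**Figure D4:**
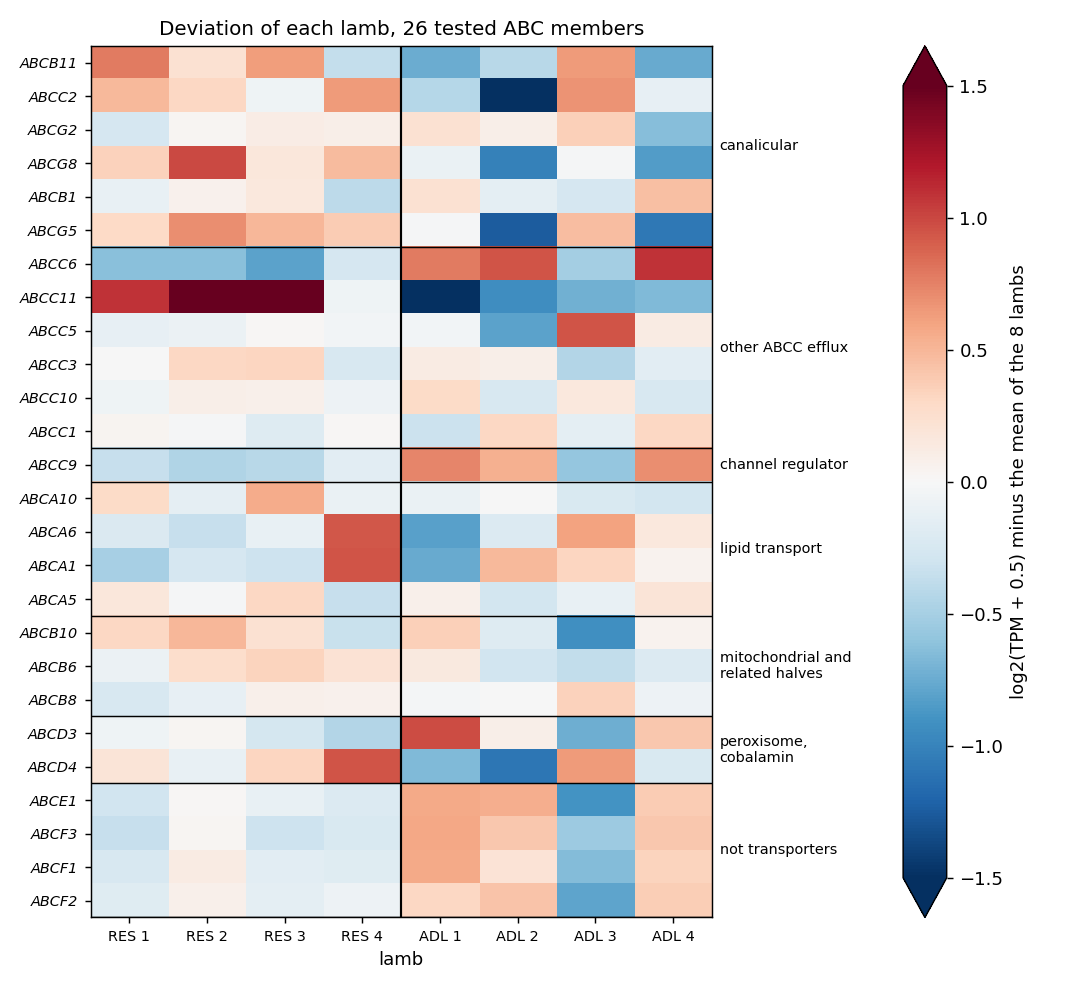
Deviation of each lamb from the mean of the 8 lambs, on log2(TPM + 0.5), for 26 of the 28 tested members grouped by role; RES lambs are on the left, ADL lambs on the right, and the colour scale ends at -1.5 and 1.5. ADL 3 has the opposite colour to the other ADL lambs in ABCB11, ABCC6, ABCC9 and the 4 cytosolic members, and RES 4 has the highest ABCA1, ABCA6 and ABCD4.

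Transporters of the peroxisome and of cobalamin did not pass with or without ADL 3. ABCD3, which brings branched chain acyl-CoA and bile acid precursors into peroxisomes, was the most abundant of them. It had 75.3, 80.4, 65.5 and 58.2 TPM in RES, against 156, 84.2, 47.4 and 105 TPM in ADL. ADL 3 was the lowest lamb and the other ADL lambs stood above RES, ADL 2 by little. ABCD3 differed by -0.37 (log2; SE 0.32, limma adjusted p = 0.747), and by -0.68 without ADL 3 (SE 0.22, limma adjusted p = 0.0839).

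ABCD4, which takes part in the release of cobalamin from lysosomes, had 34.9, 28.3, 38.2 and 59.3 TPM in RES, against 19.1, 14.1, 47.7 and 25.9 TPM in ADL. Here ADL 3 was the second highest lamb, after RES 4, and the other ADL lambs lay below RES. ABCD4 differed by 0.67 (log2; SE 0.36, limma adjusted p = 0.598), and by 1.00 without ADL 3 (SE 0.28, limma adjusted p = 0.059).

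None of the tested members grouped as lipid transporters passed with or without ADL 3. ABCA10, ABCA6 and ABCA5 lie side by side on chromosome 11 between 60102464 and 60299188, all on the plus strand, with 7510 and 5941 bases between them. ABCA10, whose substrate is not settled, was the most abundant ABC member, with 189, 141, 227 and 144 TPM in RES, against 144, 154, 132 and 128 TPM in ADL. Its groups overlapped, with a log2 difference of 0.30 (SE 0.19, limma adjusted p = 0.659). ABCA6 had 49.0 to 119 TPM in RES and 35.0 to 94.3 TPM in ADL, and ABCA5, a lipid transporter of endosomes and lysosomes, 1.92 to 3.32 TPM in RES and 2.03 to 3.00 TPM in ADL. The neighbours thus differed in level, and their log2 fold changes were 0.30, 0.13 and 0.06.

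ABCA1, which loads cholesterol and phospholipid onto apolipoprotein A1, had 14.2, 16.95, 16.3 and 39.6 TPM in RES, against 11.8, 28.7, 25.5 and 21.2 TPM in ADL. RES 4 was the highest lamb and ADL 1 the lowest, and the group means were 21.8 ± 11.9 TPM in RES and 21.8 ± 7.34 TPM in ADL. The log2 fold change was -0.06 with a 95% interval of -0.86 to 0.75. Macrophage markers summed to 1302 to 1574 TPM in RES and 1106 to 1348 TPM in ADL, with 2 of 9 at an unadjusted p under 0.05 and higher in RES (5.53% of all genes tested), and their part was not tested. ABCG1, which exports sterols toward HDL, was low, with 0.661, 0.398, 1.19 and 0.807 TPM in RES, against 1.44, 1.00, 0.940 and 0.858 TPM in ADL. In the fit without a filter on low values its log2 fold change was -0.33 (limma unadjusted p = 0.167).

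None of the tested mitochondrial and endolysosomal ABCB proteins, which work as paired subunits, passed with or without ADL 3. ABCB6, a porphyrin transporter, had 10.7, 13.7, 14.4 and 13.3 TPM in RES, against 12.6, 9.22, 8.65 and 9.77 TPM in ADL. Only ADL 1 among the ADL lambs reached the RES range. ABCB6 differed by 0.36 on the log2 scale (SE 0.17, limma adjusted p = 0.532). ABCB8, of the mitochondrial inner membrane, had a log2 fold change of -0.12, with a 95% interval of -0.47 to 0.24. ABCB10, abundant in haem-forming cells, had 27.3 to 49.0 TPM in RES and 17.9 to 44.5 TPM in ADL, with ADL 3 the lowest. Its log2 fold change was 0.35 in 8 lambs, with a 95% interval of -0.29 to 0.99, and 0.10 without ADL 3. Erythroid markers were near 0 in both groups, between 0.178 and 0.971 TPM in RES and between 0.401 and 1.45 TPM in ADL.

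The 12 low members were ABCG1, ABCA4, ABCA3, ABCA2, ABCA7, ABCB9, ABCD2, ABCC8, ABCA12, ABCG4, ABCC12 and ABCB5. Over the 8 lambs they had 0 to 655 reads each. In the unfiltered fit, 11 of them could be tested and none had an unadjusted p under 0.05, against 1841 of 22465 genes. The smallest was 0.0765 for ABCA3, which loads phospholipid into the lamellar bodies of the lung. Another row, outside the family rule, carries the symbol ABCA3 in RefSeq. That row had a mean of 2.81 TPM and was tested (log2 fold change -0.59, limma unadjusted p = 0.116). ABCB5 had 0 reads in every lamb. A count of 0 allows up to 3 reads, which for ABCB5 is 0.0664 to 0.0780 TPM in RES and 0.0685 to 0.0814 TPM in ADL, a limit that covers counting error only. ABCG4, known from brain, had 2 reads in RES 4 and 0 elsewhere.

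The place of ADL 3 differed between members. It lay outside the range of the other ADL lambs in 20 of 28 tested members, below it in 11 and above it in 9, and in 72.7% of all genes tested. Each other lamb lay outside its group mates in 11 to 15 members and in 30.6% to 59.7% of all genes. Without ADL 3 the RES and ADL values did not overlap in 13 members, RES above in 6 and below in 7, where 27.8% of all genes did not overlap, 6.16% with RES above and 21.7% with RES below. In 6 of the 7 members with RES below, ABCC9, ABCD3, ABCE1, ABCF1, ABCF2 and ABCF3, ADL 3 was lower than every RES lamb, and in ABCC6 it lay within the RES range. Of the 6 with RES above, ADL 3 lay within the RES range in ABCB11, ABCD4 and ABCG5, above it in ABCC2, between the groups in ABCG8 and with the other ADL lambs in ABCC11.

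Partners of the family were taken from lists of genes, none of which had a member called in 8 lambs. Of 12 canalicular scaffold and flippase genes, 1 was higher at an unadjusted p under 0.05, against 5.53% of all genes, and 2 rose without ADL 3, against 2.42% of all genes. ATP8B1, the canalicular aminophospholipid flippase, was among them, with a log2 fold change of 0.64 in 8 lambs (limma adjusted p = 0.307) and 0.75 without ADL 3 (limma adjusted p = 0.0264). ATP8B1 had 13.3, 10.1, 12.3 and 12.6 TPM in RES, against 7.83, 5.63, 9.63 and 7.56 TPM in ADL. Every RES lamb was above every ADL lamb.

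Of the 7 tested carriers of the sinusoidal membrane, which faces the blood, 3 were higher in RES at an unadjusted p under 0.05 (5.53% of all genes were higher at that p), the bile salt uptake carrier SLC10A1, the anion carrier SLC22A7 and the organic anion carrier SLCO1B3. SLC10A1 had 170, 142, 163 and 40.4 TPM in RES, against 71.9, 54.8, 49.4 and 31.4 TPM in ADL. RES 4 lay among the ADL lambs, and the log2 fold change was 1.17 (limma adjusted p = 0.453). Without ADL 3, 1 of the 7 rose, against 2.42% of all genes, SLC51B, a subunit of the basolateral bile salt exporter. It had 10.8, 8.85, 7.54 and 5.18 TPM in RES, against 1.61, 2.05, 13.8 and 3.61 TPM in ADL. ADL 3 was the highest of the 8 lambs and the other ADL lambs lay below RES. SLC51B had a log2 fold change of 0.98 in 8 lambs (limma adjusted p = 0.602) and 1.57 without ADL 3 (limma adjusted p = 0.0197).

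Of 17 tested regulators of ABC genes, 1 rose and 1 fell without ADL 3, against 2.42% of all genes that rose and 7.59% that fell. The xenobiotic receptor NR1I3 (CAR) had 35.4, 33.9, 36.7 and 20.5 TPM in RES, against 16.8, 4.61, 20.4 and 9.16 TPM in ADL. All RES lambs were above all ADL lambs, RES 4 by little. NR1I3 had a log2 fold change of 1.44 in 8 lambs (limma adjusted p = 0.306) and rose by 1.72 without ADL 3 (limma adjusted p = 0.034). ESRRA, a receptor that drives mitochondrial genes, had a log2 fold change of -0.66 in 8 lambs (limma adjusted p = 0.504) and fell by 0.98 without ADL 3 (limma adjusted p = 0.011). Of 11 tested cholesterol efflux partners, 1 rose and 1 fell without ADL 3, against the same shares of all genes. The HDL receptor SCARB1 rose by 0.60 (limma adjusted p = 0.035; in 8 lambs 0.43, adjusted p = 0.528), and the cholesteryl ester hydrolase NCEH1 fell by 1.29 (limma adjusted p = 0.0295; in 8 lambs -0.93, adjusted p = 0.494).

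Of 15 tested peroxisomal partners of the ABCD proteins, 2 fell and none rose without ADL 3, against 7.59% of all genes that fell. PEX16, which takes part in peroxisome assembly, was among them (-0.96, limma adjusted p = 0.00416; in 8 lambs -0.65, adjusted p = 0.496). Of 16 partners in iron-sulphur and haem synthesis 1 fell without ADL 3, against the same 7.59% of all genes. It was the scaffold ISCU (-0.95, limma adjusted p = 0.00516), whose log2 fold change in 8 lambs was -0.61 (limma adjusted p = 0.549). TAP1, TAP2 and CFTR, ABC proteins under other symbols, did not pass. TAP2, a subunit of the peptide transporter for antigen loading, came nearest, with 17.4 to 28.9 TPM in RES and 16.4 to 18.3 TPM in ADL (log2 fold change 0.38, unadjusted p = 0.0542, limma adjusted p = 0.527). Lymphocyte markers, of which 3 of 6 tested were higher at an unadjusted p under 0.05 (5.53% of all genes tested), summed to 44.3 to 57.1 TPM in RES and 30.8 to 48.6 TPM in ADL, and their part in the TAP2 value was not tested.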

How the data were processed

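Polyadenylated RNA from liver, 1 library per lamb, was sequenced as read pairs on an Illumina HiSeq, per the labels' protocols. The submitters' processing notes name bcl2fastq 1.8.4 and DESeq2 1.12.4; the sources used here give no aligner, read counter, strand setting or genome build. The authors deposited TPM per lamb and a DESeq2 comparison with a mean signal per gene, log2 fold changes, a test score, p-values and adjusted p-values. Multiplied by gene length, 100% of the deposited TPM values were whole reads within 0.001 after division by 1 step per lamb. TPM add to the same total in every lamb, so abundant genes affect all others.

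Genes at a mean of at least 1 TPM were tested on log2(TPM + 0.5) with limma 3.58.1 in R 4.3.3 (trended eBayes), two-sided. Per-lamb values are given for members at an unadjusted p under 0.05, members passing without ADL 3 or in the authors' deposited table, and liver members (ABCB11, ABCC2, ABCA1, ABCG1, ABCD3, ABCG5, ABCG8). Of ABCA10, ABCD4 and ABCB6 these were added after their values were seen. From each partner list, members passing with or without ADL 3 are named, at most 4, else the one with the smallest p, except those not reported by name; SLC10A1, SLC22A7 and SLCO1B3 were added after their values were seen. Members and lists were chosen with earlier results of these data known. List names were matched by symbol, then through the Entrez identifier in RefSeq. Of the 40 members, 38 carry the same symbol there and ABCA3 and ABCA6 do not. Some members and partners are counted but not reported here by name. Reads shared by similar genes were not examined. Alternatives were other pseudocounts (0.1, 1), filters (none, 5 TPM) and scalings, voom, age, lamb number and leaving out each lamb.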

Additional observations from a re-analysis of the deposited data

Results flagged for a closer look

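In 7 of the 56 groups of 4 lambs examined, 28 members in each group, the highest or lowest lamb stood apart from the other 3 by more than Dixon's 95% critical value on log2(TPM + 0.5), where chance flags about 1 in 20. The share of all genes flagged in this way was not counted. ADL 3 was the lowest ADL lamb in ABCC9 (3.25 TPM), ABCF3 (18.1 TPM), ABCE1 (19.96 TPM) and ABCF2 (8.88 TPM), and the highest in ABCB8 (13.1 TPM). ADL 1 was the lowest ADL lamb in ABCC11, at 1.02 TPM. RES 4 was the highest RES lamb in ABCA1, at 39.6 TPM. By a different and looser measure, ADL 3 lay outside the range of its group mates in 72.7% of all genes tested, and the other lambs outside theirs in 30.6% to 59.7%.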

How the results depend on the processing

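No ABC member passed in 8 lambs under the other pseudocounts, filters, scalings, voom, age or lamb number as a covariate. Of all genes tested, 0 or 1 passed in each of those fits. Leaving out each lamb in turn gave 0 to 8 called members, with 8 without ADL 3 and 0 without each other lamb. Among all genes, 1382 of 13815 passed without ADL 3, 49 of 13818 without RES 4, and 0 or 1 without each other lamb. Without ADL 3, rescaling by median of ratios gave 8 members, against 1151 of 13815 genes. Voom without ADL 3, chosen after seeing the data, gave 9, against 1364 of 13815 genes. Members at an unadjusted p under 0.05 numbered 5 in 8 lambs, against 9.70% of all genes, and 3 to 13 with a lamb left out. They numbered 13 without ADL 3, against 29.6% of all genes, and 3 without RES 2, ADL 2 or ADL 4. Without ADL 3 there were 15 after rescaling, against 3922 of 13815 genes, and 13 with voom, against 4029 of 13815 genes. The share of all genes at that p was not counted for the replicate block or for the fits without another lamb. Lamb numbers are shared by the groups, but same-numbered lambs did not deviate together in every case (correlations of deviations across genes -0.044 to 0.16), so the numbers were not taken as pairs; lamb number as a replicate block gave 7 members at an unadjusted p under 0.05 and 0 called. RES 1 and RES 4, but not RES 2 and RES 3, correlated best with the ADL lamb of their own number, and these pairs also share an age (33 and 36 days). RES 2 correlated best with ADL 1 (both 33 days) and RES 3 with ADL 2 (both 35 days).

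Some members with log2 fold changes near 0 changed sign; the cause was not tested. ABCG2 was at 0.038 after rescaling in 8 lambs, and at 0.25 (rescaled) and 0.13 (voom) without ADL 3. ABCA1 was at 0.19 with age as a covariate, and at 0.19 and 0.063 without ADL 3 by the same methods, ABCC5 at 0.33 and 0.21, and ABCB8 at 0.12 and 0.0024. ABCC10 was at -0.031 with age. With a lamb left out, ranges were -0.38 to 0.10 for ABCA1, -0.40 to 0.18 for ABCC5, -0.032 to 0.19 for ABCA5, -0.20 to 0.010 for ABCC1, -0.16 to 0.35 for ABCA6, -0.063 to 0.11 for ABCC10 and -0.23 to 0.10 for ABCG2. ABCC11, ABCG8, ABCG5, ABCC6 and ABCC9 kept their sign under every setting run. So did other tested members, among them ABCB11, ABCA10, ABCB6, ABCD4, ABCE1 and ABCF3. Depth limits ABCG4, ABCC12, ABCA12 and ABCC8, which had at most 22 reads in all.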
